A study of Mus musculus with 12 samples.

Results

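The difference between germ-free and colonized mice was measured in the adrenal medulla across both treatments of the study, so all 12 of its 12 arrays belong to the comparison. The shared germ-free effect is the mean of the germ-free minus colonized difference within saline and the same difference within insulin, on the log2 scale, and a positive value means a higher level in germ-free mice. It was computed for 19505 genes, read from the 19572 of 28846 rows of the deposited table that carry 1 gene symbol, with the probe set of the highest mean standing for a gene. All animals were male C57Bl6 mice, either with a normal gut flora (colonized) or without any (germ-free). Each was fasted for 3 h, given regular human insulin (2 IU/kg) or the same volume of saline into the peritoneum, and killed 90 min later, when the adrenal medulla was dissected and frozen. The groups were colonized saline (animals 1 to 3), colonized insulin (4 to 6), germ-free saline (7 to 9) and germ-free insulin (10 to 12), with 1 Affymetrix array per animal. The C57Bl6 substrain, the age of the animals and the facility that bred each kind are not given in the sources used here. Precision is limited by the number of arrays.

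The adrenal medulla is a neural crest tissue whose chromaffin cells make adrenaline and noradrenaline from tyrosine, pack them with chromogranins and peptides into dense-core granules, and release them into the blood. Release is driven by the splanchnic nerve, whose acetylcholine opens nicotinic receptors, depolarizes the cell and lets calcium in through voltage-gated channels. Low blood glucose after insulin is a strong stimulus of adrenaline release. Germ-free mice lack the bacterial products, among them short chain fatty acids, modified bile acids and cell wall components, that reach the body's tissues from the gut. The medulla is enclosed by the steroid-producing cortex, and fat lies around the gland.

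The dissected pieces held more than chromaffin cells. Chromaffin markers averaged 10.79 ± 0.29 (SD, n = 3) in colonized saline, 10.63 ± 0.08 in germ-free saline, 10.96 ± 0.24 in colonized insulin and 10.03 ± 0.25 in germ-free insulin mice. The label of the tissue would leave out the adrenal cortex, whose markers averaged 12.57 ± 0.26 (SD, n = 3) in colonized saline, 12.85 ± 0.02 in germ-free saline, 12.81 ± 0.05 in colonized insulin and 12.84 ± 0.01 in germ-free insulin mice. Adipocyte markers ran from 6.49 to 10.21 on the colonized and 8.88 to 10.57 on the germ-free arrays, and hepatocyte markers from 6.02 to 10.80 on the colonized and 6.91 to 10.08 on the germ-free arrays. The 3 colonized saline arrays differed widely in both lists. They read 6.78, 10.21 and 9.21 for adipocyte markers, with colonized saline 1 the low array, and 6.02, 10.80 and 7.69 for hepatocyte markers, with colonized saline 2 the high array. Colonized saline 2 was also the high array for fibroblast markers (8.21, 9.66 and 8.55), Schwann markers (7.81, 8.35 and 7.43) and exocytosis genes (8.56, 9.16 and 8.41). It was the low array for cortex markers (12.71, 12.27 and 12.72). Intestinal epithelium markers were between 7.37 and 9.27 on the 3 germ-free saline arrays and between 5.15 and 5.44 on the other 9. Pituitary markers were between 7.33 and 8.04 on the 3 germ-free insulin arrays and between 6.05 and 6.52 on the other 9. Fewer cells of a type and less RNA per cell cannot be told apart in such pieces. Pairs of arrays within a group correlated at a median r of 0.990 (0.954 to 0.993), and pairs of a colonized and a germ-free array at a median of 0.976. The 5222 negative control rows also differed with colonization. Their median was 4.75 ± 0.05 on the colonized arrays and 5.42 ± 0.08 on the germ-free arrays (SD, n = 6 each), a difference of 0.67, and 1438 of these rows (27.5%) were higher on all 6 germ-free arrays than on all 6 colonized ones, against 8 that were lower. This array-level offset and colonization cannot be told apart, because each colonization state has an offset of its own.

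**Figure D1:**
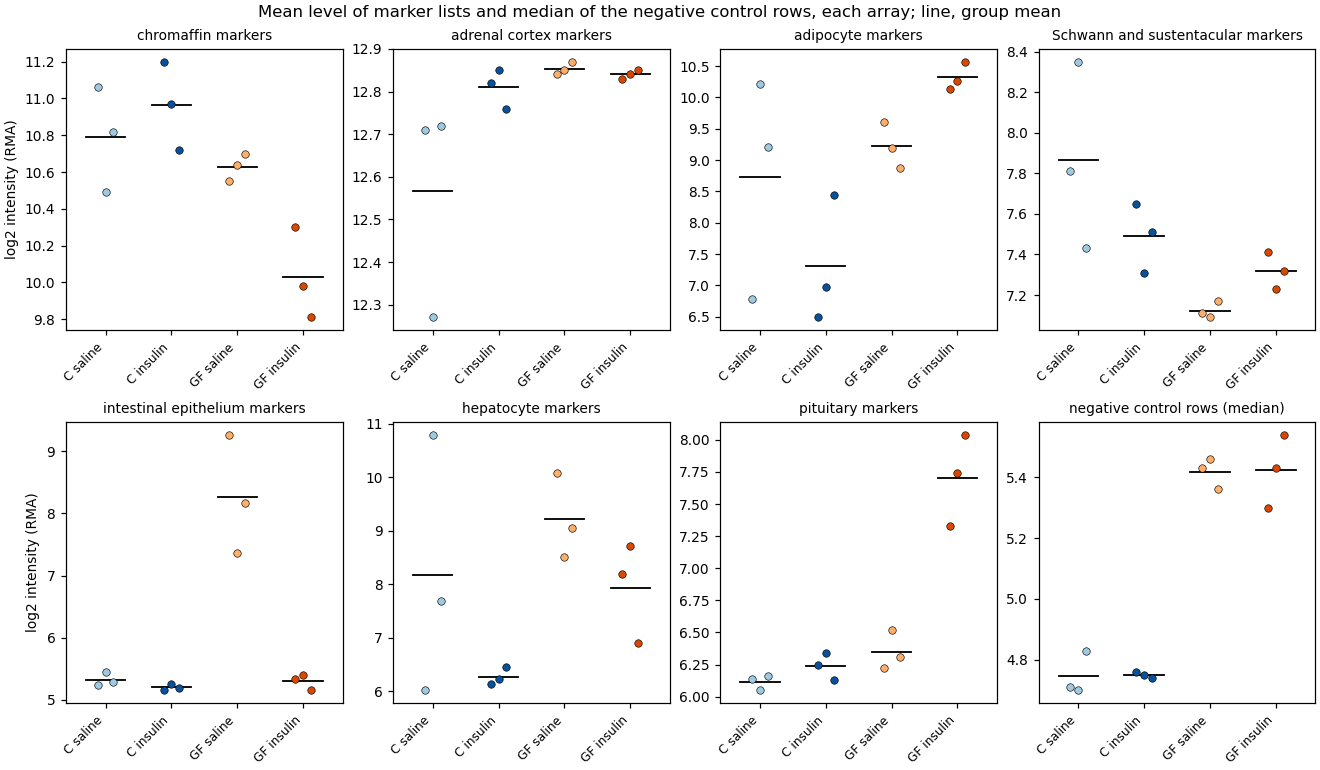
Mean log2 intensity of 7 lists of cell type markers and the median of the negative control rows (vertical axes) on each of the 12 arrays, by group (horizontal axis; C, colonized; GF, germ-free; points, arrays; lines, group means). Intestinal markers stand out in germ-free saline, pituitary markers in germ-free insulin, adipocyte markers spread from 6.49 to 10.21 among colonized arrays, and the negative control medians of the 6 germ-free arrays lie above those of the 6 colonized arrays.

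The first question was how much of the transcriptome differed between germ-free and colonized mice in both treatments. At a limma adjusted p under 0.05, 1191 genes (6.11% of those tested) were higher in germ-free mice and 2249 (11.5%) were lower. Most differences were small, with a median size of 0.44 among the called genes, and 111 higher and 69 lower genes differed by more than 1 on the log2 scale. Background was taken as 7.71, the 95th percentile of the means of the negative control rows. Of the 221 called genes whose effects are given here, 75 had a mean under it, and 33 read under it on all 12 arrays. The 33 held Arc, Cacna1a, Ccl19, Cela2a, Cga, Ciart, Col5a1, Cr2, Cx3cr1, Cxcr5, Cyp2b10, Cyp3a13, Egfl8, Elavl3, Erbb3, Ffar3 and G6pc. Also among them were Gpbar1, Hlf, Klf2, Lct, Lhb, Maff, Nfkbiz, Npas4, Oas2, Pomc, Sox10, Tbrg3, Tlr5, Tshb, Ucp3 and Vip. Among the 75 were Rab15, Hpca, Kcnq1ot1, Elavl3, Gpnmb, Sult4a1, Dnm1, Tnfaip6, all called intestinal markers and the pituitary markers called higher, and the sizes of such effects are not well measured. The germ-free and colonized arrays did not overlap within either treatment, in the same direction, for 2160 genes (11.1%), and 1942 of the called genes were among them. All 6 germ-free arrays lay on one side of all 6 colonized arrays for 1564 genes (8.02%), above them for 489 and below them for 1075. They lay above them for 27.5% of the negative control rows. Each gene described below as separated in this way is 1 of these 1564. Called genes were more often lower than higher (34.6% higher), but this split moved with the scaling. A second quantile normalization over the named rows gave 1501 higher and 1560 lower genes (49% higher), and centring each array on its median gave 1836 and 1387 (57% higher). With the level of adipocyte markers as a covariate 523 and 908 genes were called, and with that of chromaffin markers 124 and 184. The median standard errors of these 2 fits were 1.41 and 1.76 times as large as without a covariate, so lost calls partly reflect lower precision. Each covariate is the mean of its marker list, and a member of that list is fitted partly against itself. With the median of the negative controls as a covariate limma called 0 genes in either direction, with 887 at an unadjusted p under 0.05, in a fit whose standard errors were 5.58 times as large as without it.

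The effects after saline and after insulin rest on different arrays. Across the 19505 genes they correlated at r = 0.450, a description over genes that are not independent and that all share the array-level offset between colonization states. Of the genes called for the shared effect, 98.5% had the same sign in both treatments, as the choice of called genes favours, against 65.7% of all genes. The effect itself differed between treatments for 7 genes at an adjusted p under 0.05 (1941 at an unadjusted p under 0.05). Slc5a1, Muc13, Guca2b and Reg1 of the intestinal list were among them, and the others were Gh, which encodes growth hormone, Slc25a20, the carnitine carrier of mitochondria, and Adarb1. For no other gene was the difference between treatments called. Leaving out single arrays gave between 1 and 83 genes with such a difference. The higher counts came without colonized saline 1 (83), germ-free saline 8 (43), colonized saline 2 (14), germ-free saline 7 (14) and colonized saline 3 (9). The count was 1 without each of colonized insulin 4, 5 and 6, germ-free saline 9 and germ-free insulin 11 and 12, and it was 3 without germ-free insulin 10.

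**Figure D2:**
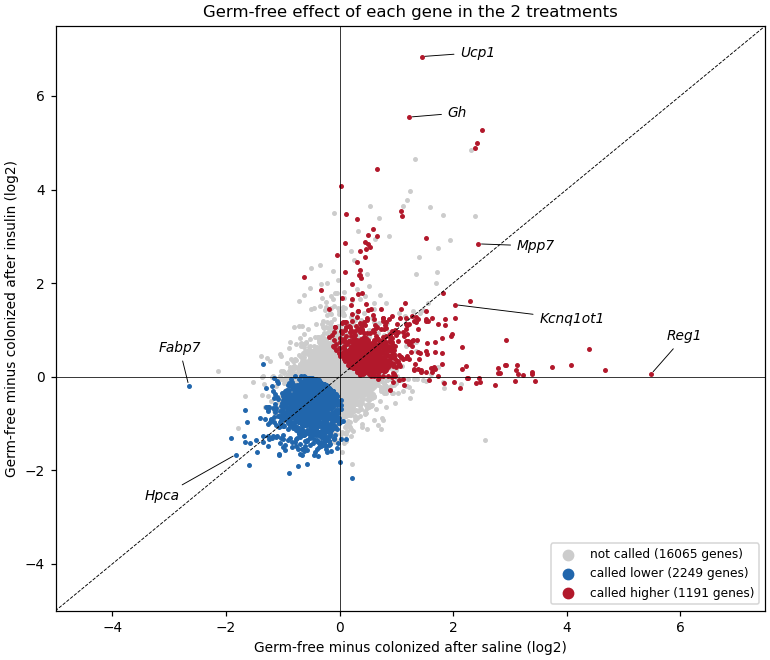
Germ-free minus colonized difference after insulin (vertical axis, log2) against that after saline (horizontal axis, log2) for 19505 genes, coloured by the call for the shared effect, with the diagonal dashed. Hpca, Mpp7 and Kcnq1ot1 lie near the diagonal, while Reg1 lies along the saline axis and Ucp1 and Gh along the insulin axis.

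Among the genes higher in germ-free mice, Mpp7, which encodes a scaffold protein of cell junctions, had the widest separation. Its log2 intensities were 7.29, 6.80 and 6.71 in colonized saline, 6.75, 6.56 and 6.47 in colonized insulin, 9.57, 9.35 and 9.21 in germ-free saline and 9.35, 9.40 and 9.54 in germ-free insulin mice. For Mpp7 all 6 germ-free arrays lay above all 6 colonized arrays, with a gap of 1.92 between the nearest arrays. The shared effect was 2.64 ± 0.11 (SE, adjusted p = 2.84e-07). All 6 colonized arrays of Mpp7 read under the background level of 7.71, so this effect is a difference from a level not above background. Kcnq1ot1, an imprinted antisense RNA that silences neighbouring genes on the paternal chromosome, read 5.91, 6.05 and 6.31 in colonized saline, 6.24, 6.06 and 6.54 in colonized insulin, 8.23, 8.07 and 8.07 in germ-free saline and 7.70, 7.84 and 7.91 in germ-free insulin mice. Here too all 6 germ-free arrays lay above all 6 colonized arrays, and the effect was 1.79 ± 0.10 (SE, adjusted p = 4.34e-06). A probe set of an antisense transcript does not show whether the sense gene contributed signal. Pde10a encodes a phosphodiesterase that breaks down cyclic nucleotides, and its arrays read 9.28, 8.68 and 9.17 in colonized saline, 8.97, 8.98 and 8.90 in colonized insulin, 10.87, 10.57 and 11.24 in germ-free saline and 10.28, 10.23 and 10.00 in germ-free insulin mice. For Pde10a all 6 germ-free arrays lay above all 6 colonized arrays (1.85 after saline and 1.22 after insulin; shared effect 1.54 ± 0.13 SE, adjusted p = 7.14e-05). Atg101, part of the kinase complex that starts autophagy, read 7.53, 7.87 and 7.52 in colonized saline, 7.61, 7.87 and 8.15 in colonized insulin, 9.27, 9.18 and 9.05 in germ-free saline and 9.02, 9.29 and 9.51 in germ-free insulin mice, so that all 6 germ-free arrays lay above all 6 colonized arrays, with an effect of 1.46 ± 0.12.

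Tnfaip6 (1.65 ± 0.23) encodes a hyaluronan-binding protein induced by inflammation, Trp53inp1 (1.43 ± 0.15) a p53-induced stress protein, Gem (1.48 ± 0.20) a small GTPase that restrains voltage-gated calcium channels, and Sik1 (1.38 ± 0.19) a kinase induced by cyclic AMP. Adarb1 (1.40 ± 0.11), the RNA-editing enzyme ADAR2, differed more after saline (2.16) than after insulin (0.64). Lncpint (1.31 ± 0.15) is a long non-coding RNA induced by p53, Slc6a5 (1.80 ± 0.23) the glycine transporter of inhibitory nerve endings, and Tbrg3 (1.30 ± 0.13) was higher too. Of the 10 largest higher effects, among genes with descriptive symbols and groups that did not overlap within either treatment, 3 belonged to other tissues. They were Gh (3.39 ± 0.31), Akp3 (2.48 ± 0.32), an intestinal alkaline phosphatase, and Lypd8 (1.69 ± 0.24), a protein of the colon epithelium. Akp3 had effects of 4.39 after saline and 0.58 after insulin, Lypd8 of 3.13 after saline and 0.24 after insulin and Gh of 1.23 after saline and 5.55 after insulin. Mpp7, Kcnq1ot1, Tnfaip6, Pde10a, Atg101, Trp53inp1, Adarb1, Sik1, Lncpint and Tbrg3 were the 10 largest of the higher effects outside the marker lists of other tissues that stayed called with the adipocyte covariate and with the chromaffin covariate.

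**Figure D3:**
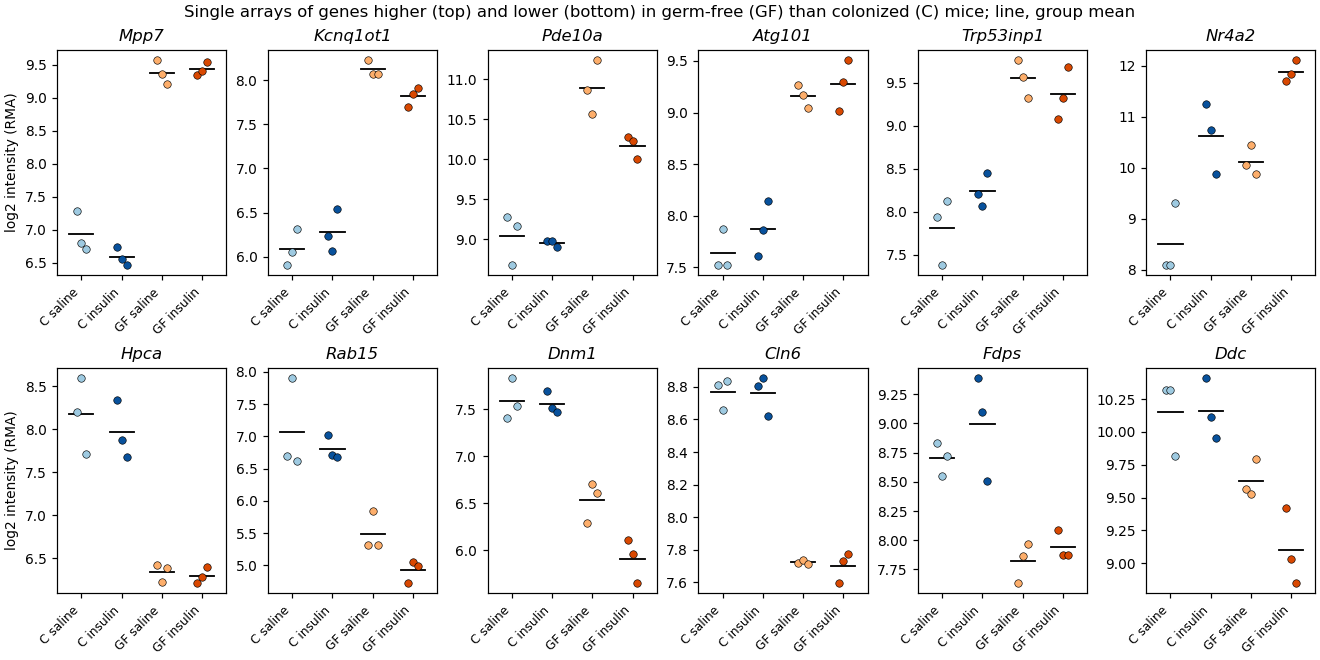
Log2 intensity (vertical axes) of 6 genes higher (top row) and 6 genes lower (bottom row) in germ-free mice on each of the 12 arrays, by group (horizontal axis; C, colonized; GF, germ-free; points, arrays; lines, group means). Mpp7 separates colonized arrays (7.29 or below) from germ-free arrays (9.21 or above), and Hpca separates them in the other direction.

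Hpca led the genes lower in germ-free mice. It encodes the neuronal calcium sensor hippocalcin and read 8.21, 8.59 and 7.72 in colonized saline, 8.34, 7.88 and 7.68 in colonized insulin, 6.42, 6.23 and 6.38 in germ-free saline and 6.22, 6.29 and 6.40 in germ-free insulin mice. For Hpca all 6 germ-free arrays lay below all 6 colonized arrays, with a gap of 1.26, and the effect was -1.75 ± 0.15 (SE, adjusted p = 7.14e-05). Rab15, a small GTPase of endosomal recycling, read 6.69, 7.90 and 6.62 in colonized saline, 7.03, 6.71 and 6.68 in colonized insulin, 5.31, 5.84 and 5.31 in germ-free saline and 4.73, 5.05 and 4.99 in germ-free insulin mice. Again all 6 germ-free arrays lay below all 6 colonized arrays, with an effect of -1.73 ± 0.20 (SE, adjusted p = 0.000387). On 11 of the 12 arrays Rab15 read under the background level of 7.71, so the size of this effect is not well measured. Cln6, an endoplasmic reticulum protein whose loss causes a neuronal storage disease, changed less but tightly, with 8.81, 8.66 and 8.84 in colonized saline, 8.81, 8.85 and 8.62 in colonized insulin, 7.72, 7.74 and 7.71 in germ-free saline and 7.60, 7.73 and 7.78 in germ-free insulin mice. For Cln6 all 6 germ-free arrays lay below all 6 colonized arrays (effect -1.05 ± 0.07 SE, adjusted p = 2.74e-05). Ache encodes acetylcholinesterase, which ends transmission at the splanchnic synapse, and read 8.87, 9.94 and 8.86 in colonized saline, 9.29, 8.90 and 8.45 in colonized insulin, 7.99, 7.89 and 7.98 in germ-free saline and 7.69, 7.26 and 7.24 in germ-free insulin mice. For this enzyme all 6 germ-free arrays lay below all 6 colonized arrays, with an effect of -1.38 ± 0.20.

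The remaining lowest effects were Sult4a1 (-1.61 ± 0.34), a sulfotransferase of the brain, Elavl3 (-1.53 ± 0.20), a neuronal RNA-binding protein, Gpnmb (-1.53 ± 0.22), a glycoprotein of macrophages and pigment cells, Sfrp1 (-1.50 ± 0.19), a secreted Wnt antagonist, Susd3 (-1.47 ± 0.24), Slc7a14 (-1.47 ± 0.16), a transporter of the cationic amino acid family, and Mmd2 (-1.42 ± 0.23). Of these genes and those above, Hpca, Rab15 and Sfrp1 also stayed called with the adipocyte and the chromaffin covariate, as did Pirt (-1.36 ± 0.17), a modulator of heat-sensing channels in sensory neurons, Dnm1 (-1.36 ± 0.11), the dynamin that cuts synaptic vesicles from the membrane, Sgip1 (-1.25 ± 0.14), an adaptor of endocytosis, Usp20 (-1.18 ± 0.09), a deubiquitinase, Spock2 (-1.17 ± 0.11), a matrix proteoglycan, Cln6, and Stmn1 (-0.98 ± 0.24), which destabilizes microtubules. Schwann and sustentacular markers, given further on, were lower in the same samples, and their part in these genes was not tested.

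Chromaffin markers were 0 higher and 7 lower of 12 measured, against 6.11% of all genes higher and 11.5% lower, and the median effect was -0.57, against -0.03 over all genes. The counts of every list below are to be read beside these shares of all genes. The lower markers were Phox2a (-0.89 ± 0.14), Hand2 (-0.81 ± 0.12) and Gata2 (-0.58 ± 0.13), transcription factors of sympathoadrenal cells, Ddc (-0.79 ± 0.13), Dbh (-0.50 ± 0.13), Chgb (-0.59 ± 0.10) and Chga (-0.45 ± 0.13). The medians were -0.10 after saline and -0.98 after insulin. Without colonized saline 2 all 12 markers were called lower. In the fit with the adipocyte covariate 2 were called and the median was -0.18. The calls of Dbh (6 arrays, -0.49 to -0.43) and Chga (9 arrays, -0.46 to -0.38) were lost when 1 array was left out. Scaled otherwise, median centring ended the call of Chga (-0.37).

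Along the catecholamine pathway, 0 higher and 6 lower of 15 measured genes of synthesis, storage and breakdown were called (0% and 40.0%, against 6.11% and 11.5% of all genes). The median was -0.50 (-0.35 after saline and -0.73 after insulin). Of the 15 genes, 8 had the same sign in both treatments, against 65.7% of all genes. Th encodes tyrosine hydroxylase, the rate-limiting step, and read 13.59, 13.04 and 13.57 in colonized saline, 13.91, 13.87 and 13.56 in colonized insulin, 13.41, 13.46 and 13.54 in germ-free saline and 13.47, 13.18 and 13.07 in germ-free insulin mice. For Th the germ-free arrays lay below the colonized arrays after insulin and overlapped them after saline, and the shared effect of -0.23 ± 0.12 (SE, adjusted p = 0.187) was not called. Ddc, the decarboxylase that makes dopamine, read 10.32, 10.32 and 9.82 in colonized saline, 10.41, 10.11 and 9.95 in colonized insulin, 9.56, 9.53 and 9.80 in germ-free saline and 9.42, 9.03 and 8.85 in germ-free insulin mice. For Ddc all 6 germ-free arrays lay below all 6 colonized arrays, and the effect was -0.79 ± 0.13 (SE, adjusted p = 0.00206). Dbh, which turns dopamine into noradrenaline, read 13.34, 12.95 and 13.11 in colonized saline, 13.65, 13.53 and 13.08 in colonized insulin, 13, 13 and 13.18 in germ-free saline and 12.87, 12.40 and 12.19 in germ-free insulin mice. In this case the germ-free arrays lay below the colonized arrays after insulin and overlapped them after saline, and the effect was -0.50 ± 0.13 (SE, adjusted p = 0.0228), from -0.07 after saline and -0.93 after insulin. Pnmt, which methylates noradrenaline to adrenaline, read 11.97, 10.92 and 11.75 in colonized saline, 12.40, 12.00 and 11.80 in colonized insulin, 11.48, 11.50 and 11.77 in germ-free saline and 11.34, 10.71 and 10.48 in germ-free insulin mice. Likewise the germ-free arrays lay below the colonized arrays after insulin and overlapped them after saline, and its effect of -0.59 ± 0.19 (SE, adjusted p = 0.0542) missed the threshold. The vesicular monoamine transporter gene Slc18a2 read 9.60, 10.13 and 9.56 in colonized saline, 10.13, 9.99 and 9.14 in colonized insulin, 9.05, 8.99 and 8.95 in germ-free saline and 8.85, 8.58 and 8.42 in germ-free insulin mice, so that all 6 germ-free arrays lay below all 6 colonized arrays (effect -0.95 ± 0.17 SE, adjusted p = 0.00281). Cyb561 (-0.90 ± 0.14), which keeps granule ascorbate reduced for dopamine hydroxylation, and Pcbd1 (-0.88 ± 0.16) and Qdpr (-0.43 ± 0.10), which regenerate the tetrahydrobiopterin cofactor, were lower as well. The noradrenaline transporter gene Slc6a2 had an effect of -0.94 ± 0.51 (SE, adjusted p = 0.229) and was not called. With the adipocyte covariate 2 of the genes were called lower, and with the chromaffin covariate limma called 0, with 3 higher and 6 lower at an unadjusted p under 0.05. The chromaffin covariate is the mean of the chromaffin markers, which hold Ddc and Dbh. These genes are therefore fitted partly against themselves, and the loss of their calls is partly built in. Calls that 1 left-out array ended were those of Dbh (6 arrays, -0.49 to -0.43).

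Among neuropeptides, granins and their processing proteins, 0 higher and 6 lower of 18 measured genes were called, with a median of -0.43. Adm, which encodes the vasodilator adrenomedullin, read 9.84, 8.82 and 9.42 in colonized saline, 8.10, 7.78 and 8.29 in colonized insulin, 8.38, 8.31 and 8.51 in germ-free saline and 6.57, 6.52 and 6.40 in germ-free insulin mice. For Adm the germ-free arrays lay below the colonized arrays within each treatment, while arrays of different treatments overlapped (effect -1.26 ± 0.15 SE, adjusted p = 0.00042). The granule proteins Scg3 (-0.86 ± 0.16), Chgb (-0.59 ± 0.10) and Chga (-0.45 ± 0.13) and the chaperone of prohormone convertase Scg5 (-0.63 ± 0.17) were lower, as was Vip (-0.42 ± 0.12), the vasoactive intestinal peptide gene. Chga read 13.27, 12.56 and 13.29 in colonized saline, 13.55, 13.43 and 13.28 in colonized insulin, 12.96, 13.01 and 13.04 in germ-free saline and 12.80, 12.55 and 12.34 in germ-free insulin mice, so that the germ-free arrays lay below the colonized arrays after insulin and overlapped them after saline. Neuropeptide Y, from Npy, had an effect of -0.55 ± 0.18 (SE, adjusted p = 0.0558) and proenkephalin, from Penk, of -0.81 ± 0.29 (SE, adjusted p = 0.0793), and neither was called. In the fit with the adipocyte covariate 2 genes of this list were called lower, and with the chromaffin covariate limma called 0, with 1 higher and 2 lower at an unadjusted p under 0.05. The median with the chromaffin covariate was 0.08. Chga and Chgb are chromaffin markers and so part of that covariate, and they are fitted partly against themselves. Without 1 array the call was lost for Chga (9 arrays, -0.46 to -0.38), Scg5 (3 arrays, -0.61 to -0.56) and Vip (6 arrays, -0.44 to -0.35). By scaling, median centring ended the calls of Chga (-0.37) and Vip (-0.35).

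Receptors and channels that carry the splanchnic signal into the cell were 2 higher and 10 lower of 19 measured, with a median of -0.57. The nicotinic receptor subunits Chrnb2 (-0.85 ± 0.12), Chrnb4 (-0.81 ± 0.24), Chrna7 (-0.71 ± 0.19) and Chrna3 (-0.57 ± 0.18) were lower, as was Adcyap1r1 (-0.87 ± 0.18), the receptor of the splanchnic co-transmitter PACAP. Chrnb2 read 7.52, 7.02 and 7.37 in colonized saline, 7.82, 7.58 and 7.25 in colonized insulin, 6.62, 6.95 and 6.92 in germ-free saline and 6.31, 6.34 and 6.30 in germ-free insulin mice. For Chrnb2 all 6 germ-free arrays lay below all 6 colonized arrays. The dopamine receptor gene Drd2 (-0.91 ± 0.27), the angiotensin receptor gene Agtr2 (-0.91 ± 0.27), the sodium channel gene Scn3a (-0.69 ± 0.13) and the calcium channel genes Cacna1b (-0.77 ± 0.18) (N-type) and Cacna1a (-0.51 ± 0.13) (P/Q-type) were lower too. Cacna1c, of the L-type calcium channel, went the other way and read 10.03, 9.76 and 10.24 in colonized saline, 9.78, 10.00 and 10.40 in colonized insulin, 11.10, 11.08 and 11.18 in germ-free saline and 10.97, 11.08 and 10.97 in germ-free insulin mice. For Cacna1c all 6 germ-free arrays lay above all 6 colonized arrays (effect 1.03 ± 0.11 SE, adjusted p = 0.000241), and this call held with the adipocyte and the chromaffin covariate. The potassium channel gene Kcnk9 (0.29 ± 0.09) was also higher. With the chromaffin covariate 2 genes of this list were called higher and 0 lower, with 3 higher and 5 lower at an unadjusted p under 0.05. Dropping 1 array at a time ended the calls of Chrnb4 (8 arrays, -0.79 to -0.68), Chrna7 (3 arrays, -0.69 to -0.65), Chrna3 (9 arrays, -0.60 to -0.46), Drd2 (7 arrays, -0.94 to -0.82), Agtr2 (10 arrays, -0.95 to -0.72), Cacna1a (3 arrays, -0.45 to -0.43) and Kcnk9 (9 arrays, 0.27 to 0.31). Under another scaling, a second quantile normalization ended the calls of Agtr2 (-0.83), Chrna3 (-0.56) and Chrnb4 (-0.74), and median centring ended those of Agtr2 (-0.83), Chrna3 (-0.50) and Chrnb4 (-0.74).

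The machinery of regulated exocytosis was 0 higher and 10 lower of 18 measured, with a median of -0.59, and of -0.58 after saline and -0.63 after insulin. The shared median was -0.45 without colonized saline 2. Snap25 encodes a membrane SNARE of vesicle fusion and read 11.48, 11.77 and 11.26 in colonized saline, 11.97, 11.60 and 11.40 in colonized insulin, 10.76, 10.75 and 11.14 in germ-free saline and 10.63, 9.97 and 9.57 in germ-free insulin mice. For Snap25 all 6 germ-free arrays lay below all 6 colonized arrays, and the effect was -1.11 ± 0.17 (SE, adjusted p = 0.00161). Syt11, a synaptotagmin, read 8.68, 9.86 and 8.26 in colonized saline, 8.85, 8.53 and 7.99 in colonized insulin, 7.56, 7.64 and 7.55 in germ-free saline and 7.40, 7.05 and 7.13 in germ-free insulin mice. Once more all 6 germ-free arrays lay below all 6 colonized arrays (effect -1.31 ± 0.23 SE, adjusted p = 0.00322). The calcium sensors Syt1 (-0.68 ± 0.19), Syt4 (-0.78 ± 0.17) and Syt7 (-0.39 ± 0.10), the priming factors Unc13a (-0.58 ± 0.14) and Cadps (-0.62 ± 0.19), the SNARE clamp Cplx2 (-0.65 ± 0.15), the vesicle protein Sv2a (-0.69 ± 0.12) and the vesicle GTPase Rab3c (-0.52 ± 0.13) were lower. Sv2c had an effect of -0.82 ± 0.49 and was not called (adjusted p = 0.282). The median was -0.71 with the adipocyte covariate, where 4 members were called lower. It was -0.64 with the chromaffin covariate, where limma called 0, with 1 higher and 6 lower at an unadjusted p under 0.05. The calls of Syt1 (7 arrays, -0.70 to -0.61), Cadps (9 arrays, -0.67 to -0.55) and Syt7 (-0.35 without colonized insulin 4 and -0.36 without germ-free insulin 12) were lost when 1 array was left out. Scaled otherwise, a second quantile normalization ended the calls of Cadps (-0.54) and Syt7 (-0.31), and median centring ended those of Cadps (-0.55) and Syt7 (-0.31).

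**Figure D4:**
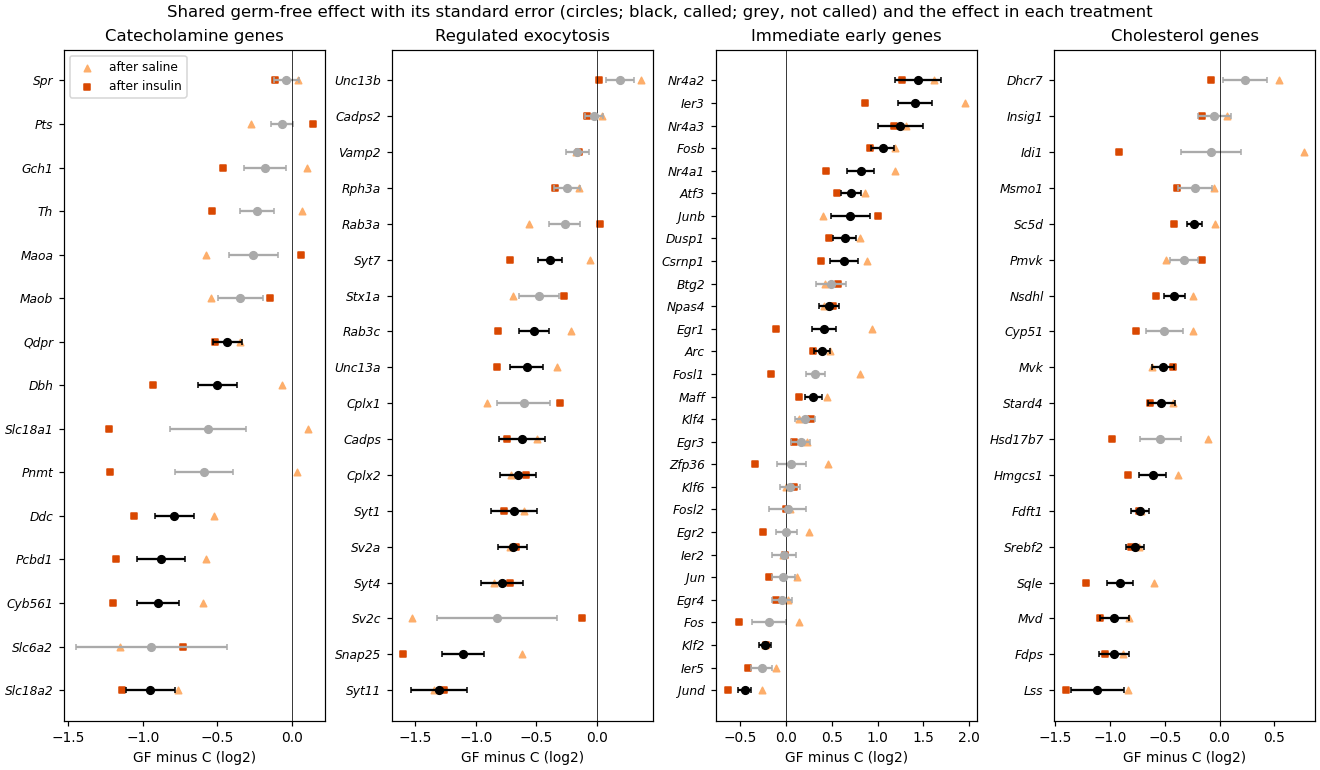
Shared germ-free effect of each measured member of 4 gene lists (horizontal axes, log2, germ-free, GF, minus colonized, C; circles with bars, effect and its standard error, black where called and grey where not), with the effect after saline (triangles) and after insulin (squares). Of these lists, 6 catecholamine genes, 10 exocytosis genes and 11 cholesterol genes are called lower, and 13 immediate early genes are called higher.

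Immediate early genes, transcribed within minutes of depolarization or a rise in cyclic AMP, were 13 higher and 2 lower of 28 measured, with a median of 0.31. The germ-free arrays lay on one side of the colonized arrays within both treatments, in the same direction, for 11 of the 28, against 11.1% of all genes. Nr4a2, an orphan nuclear receptor gene, read 8.10, 8.10 and 9.30 in colonized saline, 11.26, 10.74 and 9.87 in colonized insulin, 10.05, 10.44 and 9.88 in germ-free saline and 11.71, 11.83 and 12.11 in germ-free insulin mice. For Nr4a2 the germ-free arrays lay above the colonized arrays within each treatment, while arrays of different treatments overlapped (1.62 after saline and 1.26 after insulin; shared effect 1.44 ± 0.25 SE, adjusted p = 0.00301). Ier3, an early response gene of cell survival, read 7.72, 7.87 and 7.80 in colonized saline, 9.82, 9.19 and 8.80 in colonized insulin, 9.90, 10.11 and 9.25 in germ-free saline and 9.86, 10.08 and 10.45 in germ-free insulin mice. For Ier3 the germ-free arrays lay above the colonized arrays within each treatment, while arrays of different treatments overlapped (effect 1.41 ± 0.18 SE, adjusted p = 0.00066). Fosb, a subunit of the AP-1 transcription factor, read 7.21, 7.49 and 6.82 in colonized saline, 8.48, 8.46 and 8.35 in colonized insulin, 8.45, 8.36 and 8.28 in germ-free saline and 9.06, 9.36 and 9.65 in germ-free insulin mice. In that case the germ-free arrays lay above the colonized arrays within each treatment, while arrays of different treatments overlapped (effect 1.06 ± 0.12 SE, adjusted p = 0.000387). The related receptors Nr4a3 (1.25 ± 0.25) and Nr4a1 (0.81 ± 0.15), the transcription factors Atf3 (0.71 ± 0.11), Junb (0.70 ± 0.21), Csrnp1 (0.63 ± 0.15), Npas4 (0.47 ± 0.11), Egr1 (0.41 ± 0.13) and Maff (0.29 ± 0.09), the synaptic protein Arc (0.39 ± 0.09) and the MAP kinase phosphatase Dusp1 (0.64 ± 0.12) were higher as well. The AP-1 subunit Jund (-0.45 ± 0.07) and the endothelial factor Klf2 (-0.23 ± 0.07) were lower. The level of the list was 8.08 in colonized saline, 8.60 in germ-free saline, 8.82 in colonized insulin and 9.04 in germ-free insulin mice. The median of the list was 0.41 with the adipocyte covariate (7 called higher) and 0.46 with the chromaffin covariate, where limma called 0, with 14 higher and 2 lower at an unadjusted p under 0.05. It was -0.24 with the negative control covariate, in the fit with standard errors 5.58 times as large. There the medians of chromaffin markers (0.12), catecholamine genes (0.22), neuropeptides (0.06), splanchnic receptors (0.46) and exocytosis (0.34) changed sign too. Of lists given further on, Schwann markers (0.65) and fatty acid synthesis (-0.29) also did. Cholesterol genes (-0.825), adipocyte markers (0.30) and intestinal markers (2.13) were among those that kept their sign. Calls that 1 left-out array ended were those of Junb (9 arrays, 0.58 to 0.75), Egr1 (10 arrays, 0.34 to 0.45), Maff (9 arrays, 0.24 to 0.32) and Klf2 (9 arrays, -0.24 to -0.20). With the arrays rescaled, a second quantile normalization ended the calls of Egr1 (0.42) and Klf2 (-0.12), and median centring ended the call of Klf2 (-0.15).

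Cyclic AMP acts on many such genes through the palindrome TGACGTCA, which the factor CREB binds. RefSeq promoter windows (GRCm38.p6) were matched by Entrez gene identifier for 15691 of the 19505 genes and for 23 of the immediate early genes. In each window the 250 bases before the start were searched for these letters, whose reverse complement is the same. The motif was in a window of 2.27% of all genes that had one and of 3 of the 23, Dusp1, Maff and Btg2. Of the 11 immediate early genes called higher that had a window, 2 held the motif, Dusp1 and Maff, and Btg2 was not called. For Dusp1 and Maff 100 bases around the motif are shown, with the motif in capitals. A link between the motif and the values was not tested.
Dusp1, chr17:26508562-26508661, minus strand: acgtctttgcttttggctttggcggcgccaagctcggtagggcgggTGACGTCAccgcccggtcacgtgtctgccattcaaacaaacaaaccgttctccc
Maff, chr15:79347420-79347519, plus strand: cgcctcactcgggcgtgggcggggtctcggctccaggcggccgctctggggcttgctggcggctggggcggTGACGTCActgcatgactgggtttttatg
Dusp1 read 10.30, 10.72 and 10.28 in colonized saline, 11.65, 10.91 and 11.24 in colonized insulin, 11.26, 11.18 and 11.27 in germ-free saline and 11.83, 11.68 and 11.71 in germ-free insulin mice, so that the germ-free arrays lay above the colonized arrays within each treatment, while arrays of different treatments overlapped (effect 0.64 ± 0.12 SE, adjusted p = 0.00452). Maff read 5.99, 5.88 and 6.16 in colonized saline, 6.92, 6.85 and 6.54 in colonized insulin, 6.54, 6.24 and 6.60 in germ-free saline and 6.89, 6.96 and 6.87 in germ-free insulin mice, so that the germ-free arrays lay above the colonized arrays after saline and overlapped them after insulin (effect 0.29 ± 0.09 SE, adjusted p = 0.0471). Maff read under the background level of 7.71 on all 12 arrays, so its effect is not well measured. A match describes the letters of a window and not the binding of a factor. Without 1 array the call was lost for Maff (9 arrays, 0.24 to 0.32).

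Of the steroid synthesis and ACTH response genes 2 higher and 0 lower of 14 measured were called, namely Nr5a1 (0.57 ± 0.10), the transcription factor of steroid-producing cells, and Fdx1 (0.36 ± 0.11), which passes electrons to the mitochondrial steroid enzymes. Nr5a1 read 10.97, 10.48 and 11.07 in colonized saline, 11.08, 11.15 and 11.25 in colonized insulin, 11.53, 11.54 and 11.60 in germ-free saline and 11.53, 11.57 and 11.66 in germ-free insulin mice, and all 6 germ-free arrays lay above all 6 colonized arrays. The aldosterone synthase gene Cyp11b2 (0.36 ± 0.18) and the steroid cell repressor Nr0b1 (0.52 ± 0.24) were not called. Dropping 1 array at a time ended the calls of Fdx1 (9 arrays, 0.32 to 0.38).

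Cholesterol synthesis and uptake genes, targets of the factor SREBP-2, were 0 higher and 11 lower of 18 measured, with a median of -0.53 (-0.41 after saline and -0.75 after insulin). In the order of the pathway the lower genes were Hmgcs1 (-0.61 ± 0.12), Mvk (-0.52 ± 0.10), Mvd (-0.96 ± 0.13), Fdps (-0.96 ± 0.13), Fdft1 (-0.73 ± 0.08), Sqle (-0.91 ± 0.12), Lss (-1.12 ± 0.24), Nsdhl (-0.41 ± 0.10) and Sc5d (-0.23 ± 0.07). The gene of SREBP-2 itself, Srebf2 (-0.77 ± 0.08), and the sterol carrier gene Stard4 (-0.53 ± 0.12) were lower too. Sqle encodes squalene epoxidase, a rate-limiting step, and read 9.22, 8.87 and 9.22 in colonized saline, 10.02, 9.72 and 9.44 in colonized insulin, 8.27, 8.57 and 8.66 in germ-free saline and 8.65, 8.49 and 8.38 in germ-free insulin mice. For Sqle all 6 germ-free arrays lay below all 6 colonized arrays (effect -0.91 ± 0.12 SE, adjusted p = 0.000555). Lss, lanosterol synthase, read 10.53, 9.03 and 10.43 in colonized saline, 11.19, 10.73 and 10.32 in colonized insulin, 8.77, 9.36 and 9.34 in germ-free saline and 9.29, 9.41 and 9.34 in germ-free insulin mice. For Lss the germ-free arrays lay below the colonized arrays after insulin and overlapped them after saline (effect -1.12 ± 0.24 SE, adjusted p = 0.00884). Hmgcs1, which makes the substrate of HMG-CoA reductase, read 11.80, 11.10 and 11.70 in colonized saline, 12.34, 11.95 and 11.91 in colonized insulin, 11.05, 11.24 and 11.15 in germ-free saline and 11.13, 11.34 and 11.24 in germ-free insulin mice. For Hmgcs1 the germ-free arrays lay below the colonized arrays after insulin and overlapped them after saline (effect -0.61 ± 0.12 SE, adjusted p = 0.00643). SREBP-2 binds sterol response elements, and the letters TCACNCCAC were searched on either strand. They were in a window of 1.22% of all genes that had one and of 1 of the 14 genes of this list with one, Hmgcs1. Its 100 bases (GRCm38.p6, from RefSeq) are shown with the motif, or its reverse complement, in capitals.
Hmgcs1, chr13:119690168-119690267, plus strand: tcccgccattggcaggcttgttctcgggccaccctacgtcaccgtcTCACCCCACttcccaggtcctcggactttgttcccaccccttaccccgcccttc
Without colonized saline 2, 14 members were called lower. The adipocyte covariate gave 5 lower, the adrenal cortex covariate 17, while with the chromaffin covariate limma called 0, with 1 higher and 6 lower at an unadjusted p under 0.05, with a median of -0.21. The calls of Sc5d (10 arrays, -0.25 to -0.20) were lost when 1 array was left out. Scaled otherwise, median centring ended the call of Sc5d (-0.16).

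Adipocyte markers were 7 higher and 0 lower of 14 measured, with medians of 0.35 after saline and 2.94 after insulin. Ucp1, the uncoupling protein of brown fat, read 4.02, 10.97 and 10.35 in colonized saline, 4.08, 4.35 and 5.74 in colonized insulin, 10.60, 9.63 and 9.45 in germ-free saline and 11.59, 11.52 and 11.58 in germ-free insulin mice. For Ucp1 the germ-free arrays lay above the colonized arrays after insulin and overlapped them after saline, and the effect was 4.15 ± 0.94 (SE, adjusted p = 0.0109). The other called markers were Elovl3 (2.05 ± 0.49), Dio2 (1.87 ± 0.26), Pparg (1.59 ± 0.50), Fabp4 (1.25 ± 0.39), Lipe (0.64 ± 0.16) and Pnpla2 (0.58 ± 0.16). Adipoq (2.99 ± 1.03), Cidec (2.49 ± 0.85) and Retn (2.38 ± 0.84) were not called. Without colonized saline 2, all 14 markers were called higher, and without another single array between 3 (colonized insulin 4, germ-free saline 7 or germ-free insulin 12) and 11 (colonized insulin 6). Brown fat thermogenic genes were 6 higher and 0 lower of 13 measured, among them Ppargc1a (2.26 ± 0.41), Cpt1b (1.27 ± 0.34) and Cox7a1 (0.76 ± 0.20). The medians of the brown fat list were -0.10 after saline and 2.38 after insulin, and 5 of the 13 had the same sign in both treatments. With the adipocyte level as a covariate 2 were called and the median was 0.12. Ucp1 belongs to both lists, so the fall of the brown fat median is partly built in. Fatty acid synthesis genes were 6 higher and 0 lower of 17 measured, with Acaca (1.17 ± 0.32), the rate-limiting carboxylase, Elovl6 (0.64 ± 0.13), Thrsp (1.38 ± 0.40), Agpat2 (0.94 ± 0.21) and Dgat2 (1.48 ± 0.43). Their medians were 0.08 after saline and 1.32 after insulin, and with the adipocyte covariate limma called 0 genes of this list, with 1 higher and 0 lower at an unadjusted p under 0.05, with a median of 0.05. How much of the metabolic differences the fat around the gland accounts for was not tested. Calls that 1 left-out array ended were those of Pparg (9 arrays, 1.45 to 1.73), Fabp4 (9 arrays, 1.11 to 1.34), Lipe (3 arrays, 0.59 to 0.60), Pnpla2 (4 arrays, 0.54 to 0.58), Cpt1b (4 arrays, 1.10 to 1.27), Cox7a1 (3 arrays, 0.68 to 0.75), Acaca (6 arrays, 1.06 to 1.17), Thrsp (7 arrays, 1.25 to 1.42) and Dgat2 (7 arrays, 1.32 to 1.56). With the arrays rescaled, a second quantile normalization ended the call of Fabp4 (1.24).

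Fatty acid oxidation genes and PPAR targets were 6 higher and 1 lower of 24 measured. Their medians were -0.12 after saline and 0.56 after insulin, and 8 of the 24 had the same sign in both treatments. Adjusted for the adipocyte level, 1 was called higher and 1 lower. Slc25a20 (0.43 ± 0.08) and Hadhb (0.26 ± 0.07), of mitochondrial oxidation, and Ucp3 (0.41 ± 0.09) were higher beside Cpt1b, Fabp4 and Ppargc1a, and Plin5 (-0.59 ± 0.17), a lipid droplet protein, was lower. The effect of Slc25a20 differed between treatments, with -0.10 after saline and 0.96 after insulin. Fabp3 had an effect of 1.02 ± 0.38 and was not called. Respiratory chain and ATP synthase subunits were 3 higher and 0 lower of 21 measured, namely Uqcrc2 (0.54 ± 0.10), Cycs (0.48 ± 0.12) and Sdhc (0.22 ± 0.07), with -0.29 ± 0.09 for Sdha, which was not called. The medians of the subunits were -0.16 after saline and 0.30 after insulin, and 4 of the 21 had the same sign in both treatments. Of the subunits 1 was called higher with the adipocyte covariate, where the median was -0.08. Glucose transport, glycolysis and glycogen genes were 3 higher and 6 lower of 20 measured. The lower genes were Hk1 (-1.06 ± 0.17) and Hk2 (-0.48 ± 0.11), the hexokinases that start glycolysis, Slc2a3 (-0.98 ± 0.14), the neuronal glucose transporter, Pfkl (-0.40 ± 0.09), Pgam1 (-0.38 ± 0.07) and Pkm (-0.24 ± 0.07). The higher genes were Pfkfb3 (1.52 ± 0.38), which raises glycolytic flux, Slc2a4 (0.60 ± 0.19), the insulin-responsive transporter of fat and muscle, and Ppp1r3b (0.74 ± 0.21), a glycogen-targeting subunit. Hk1 read 9.63, 10.60 and 9.47 in colonized saline, 9.64, 9.40 and 9.35 in colonized insulin, 8.53, 8.78 and 8.79 in germ-free saline and 8.69, 8.44 and 8.47 in germ-free insulin mice, so that all 6 germ-free arrays lay below all 6 colonized arrays. Pfkfb3 read 6.97, 9.52 and 8.24 in colonized saline, 6.81, 6.75 and 8.16 in colonized insulin, 9.03, 8.76 and 8.02 in germ-free saline and 9.87, 9.80 and 10.11 in germ-free insulin mice, so that the germ-free arrays lay above the colonized arrays after insulin and overlapped them after saline. With the adipocyte covariate 2 genes of glucose use were called lower and 0 higher, with 1 higher and 6 lower at an unadjusted p under 0.05. Without 1 array the call was lost for Hadhb (7 arrays, 0.23 to 0.27), Plin5 (6 arrays, -0.59 to -0.53), Sdhc (10 arrays, 0.20 to 0.23), Pkm (10 arrays, -0.25 to -0.21), Slc2a4 (8 arrays, 0.53 to 0.64) and Ppp1r3b (8 arrays, 0.60 to 0.75). By scaling, a second quantile normalization ended the call of Plin5 (-0.51), and median centring ended the calls of Pkm (-0.17) and Plin5 (-0.52).

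Most lists of immunity had shares of called genes near those of all genes, which were 6.11% higher and 11.5% lower. Interferon-stimulated genes were 2 higher and 5 lower of 30 measured (6.67% and 16.7%), with a median of -0.04 that changed sign to 0.03 with median centring. Irf7, the factor that amplifies type I interferon, read 8.35, 7.90 and 8.14 in colonized saline, 8.78, 9.39 and 8.62 in colonized insulin, 7.75, 7.68 and 7.79 in germ-free saline and 7.24, 7.57 and 7.35 in germ-free insulin mice. For Irf7 all 6 germ-free arrays lay below all 6 colonized arrays (effect -0.97 ± 0.13 SE, adjusted p = 0.000688). Ifit1 (-0.67 ± 0.15), Oasl2 (-0.54 ± 0.15), Bst2 (-0.46 ± 0.11) and Stat2 (-0.37 ± 0.11) were lower, while Iigp1 (0.80 ± 0.25) and Oas2 (0.45 ± 0.14) were higher. Antigen presentation genes were 1 higher and 1 lower of 14 measured (7.14% and 7.14%), with H2-Aa (0.32 ± 0.10) higher and Tap2 (-0.43 ± 0.10) lower. Microbial pattern sensors were 1 higher and 2 lower of 22 measured (4.55% and 9.09%). Tlr5 (0.41 ± 0.12), the flagellin receptor, was higher, and Ly96 (-0.62 ± 0.10), which joins TLR4 to bind lipopolysaccharide, and Lbp (-0.59 ± 0.13), which delivers lipopolysaccharide, were lower. Tlr5 and Oas2 read under the background level of 7.71 on all 12 arrays. Among inflammatory cytokines and NF-kB feedback genes 2 higher and 0 lower of 21 measured were called, Ptgs2 (1.45 ± 0.33), the inducible cyclooxygenase, and Nfkbiz (0.37 ± 0.08). Ptgs2 read 4.61, 5.87 and 5.00 in colonized saline, 10.06, 8.93 and 7.84 in colonized insulin, 6.92, 7.58 and 6.90 in germ-free saline and 10.02, 9.54 and 10.02 in germ-free insulin mice, so that the germ-free arrays lay above the colonized arrays after saline and overlapped them after insulin. Every saline array of Ptgs2 read under 7.71, so the size of its effect after saline is not well measured. Acute phase and antimicrobial genes were 2 higher and 1 lower of 21 measured, with Orm1 (0.86 ± 0.27) and Pigr (1.59 ± 0.49) higher and Lyz2 (-0.42 ± 0.09) lower. Hp (1.94 ± 0.79) was not called, but with the adipocyte covariate limma called it lower (-0.87, adjusted p = 0.023). Pigr is also an intestinal marker and Orm1 and Hp are made in liver, and the part of the intestinal and hepatocyte markers, given above, was not tested. Dropping 1 array at a time ended the calls of Oasl2 (7 arrays, -0.54 to -0.47), Stat2 (9 arrays, -0.39 to -0.30), Iigp1 (9 arrays, 0.61 to 0.85), Oas2 (7 arrays, 0.35 to 0.47), H2-Aa (7 arrays, 0.28 to 0.31), Tlr5 (8 arrays, 0.37 to 0.43), Orm1 (11 arrays, 0.69 to 0.93) and Pigr (10 arrays, 1.27 to 1.70). Under another scaling, a second quantile normalization ended the calls of Oasl2 (-0.45), Stat2 (-0.28) and Tlr5 (0.39), and median centring ended those of Oasl2 (-0.46) and Stat2 (-0.30).

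Macrophage markers were 0 higher and 4 lower of 16 measured. C1qa (-0.29 ± 0.07) and C1qc (-0.34 ± 0.08), of the first complement component, and Cx3cr1 (-0.47 ± 0.10) were lower beside Lyz2, while the median of -0.02 became 0.04 and 0.06 under the other scalings. Complement and coagulation genes were 0 higher and 4 lower of 14 measured, with C2 (-0.42 ± 0.12) and C7 (-0.70 ± 0.14) the other lower ones. C7, of the membrane attack complex, read 10.59, 10.57 and 10.14 in colonized saline, 10.51, 10.01 and 10.80 in colonized insulin, 9.93, 9.76 and 9.93 in germ-free saline and 9.84, 9.46 and 9.49 in germ-free insulin mice, so that all 6 germ-free arrays lay below all 6 colonized arrays. T and NK cell markers had 0 of 15 called by limma (0 at an unadjusted p under 0.05) and mast cell and granulocyte markers 0 of 12 (2), and B and plasma cell markers had 1, Cr2 (0.35 ± 0.09). The calls of C2 (9 arrays, -0.43 to -0.33) and Cr2 (0.31 without colonized insulin 5 and 0.32 without germ-free saline 8) were lost when 1 array was left out. Scaled otherwise, a second quantile normalization ended the calls of C1qa (-0.22), C1qc (-0.24) and C2 (-0.35), and median centring ended those of C1qa (-0.22) and C2 (-0.34).

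Of the receptors and transporters for bile acids, short chain fatty acids and indoles 3 higher and 0 lower of 14 measured were called. Slc16a1 encodes the monocarboxylate transporter MCT1, which carries lactate, ketone bodies and short chain fatty acids, and read 7.33, 8.19 and 8.03 in colonized saline, 8.21, 8.12 and 8.16 in colonized insulin, 8.68, 8.66 and 8.52 in germ-free saline and 9.61, 9.33 and 9.34 in germ-free insulin mice. For Slc16a1 all 6 germ-free arrays lay above all 6 colonized arrays (effect 1.01 ± 0.13 SE, adjusted p = 0.000557). Ffar3 (0.41 ± 0.11), a receptor of short chain fatty acids, and Gpbar1 (0.29 ± 0.09), the membrane receptor of bile acids, were higher, and Nr1h4, the nuclear bile acid receptor, had -0.52 ± 0.18 and was not called. Ffar3 and Gpbar1 read under the background level of 7.71 on all 12 arrays, so their effects are not well measured. In the aryl hydrocarbon receptor pathway 1 higher and 1 lower of 10 measured were called (10.0% each, near the 6.11% and 11.5% of all genes), Tiparp (0.86 ± 0.21) higher and Cyp1b1 (-0.79 ± 0.14) lower, both known targets of the receptor, and Cyp1a2 (0.88 ± 0.64) and Nqo1 (-0.41 ± 0.14) were not called. Xenobiotic and glutathione metabolism genes were 4 higher and 2 lower of 21 measured (19.0% and 9.52%). Cyp2b10, a target of the receptor CAR, read 4.04, 4.97 and 4.63 in colonized saline, 4.39, 4.22 and 4.45 in colonized insulin, 7.42, 5.50 and 6.13 in germ-free saline and 5.15, 5.49 and 4.88 in germ-free insulin mice. For Cyp2b10 the germ-free arrays lay above the colonized arrays within each treatment, while arrays of different treatments overlapped (effect 1.31 ± 0.27 SE, adjusted p = 0.0072). Gsta2 (1.74 ± 0.37), Cyp3a13 (1.16 ± 0.25) and Ephx1 (0.24 ± 0.07) were higher, and Gclm (-0.29 ± 0.08) and Abcc3 (-0.46 ± 0.12) lower. Cyp2b10 and Cyp3a13 also read under 7.71 on all 12 arrays. Cyp2e1 (2.61 ± 0.84) and Ces1d (1.34 ± 0.49) were not called, and both are abundant in liver. In the fit with the adipocyte covariate limma called 0 of the xenobiotic genes, with 5 higher and 4 lower at an unadjusted p under 0.05, and with the chromaffin covariate 0, with 2 higher and 2 lower at an unadjusted p under 0.05. Calls that 1 left-out array ended were those of Ffar3 (4 arrays, 0.37 to 0.40), Gpbar1 (9 arrays, 0.24 to 0.31), Ephx1 (8 arrays, 0.22 to 0.25), Gclm (3 arrays, -0.28 to -0.25) and Abcc3 (-0.38 without germ-free saline 8). With the arrays rescaled, a second quantile normalization ended the call of Abcc3 (-0.36), and median centring ended that of Gclm (-0.22).

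Circadian clock genes were 4 higher and 2 lower of 18 measured (22.2% and 11.1%, against 6.11% and 11.5% of all genes). Nfil3, a repressor of clock output and of the D-box, read 6.26, 6.99 and 6.66 in colonized saline, 8.04, 7.59 and 7.42 in colonized insulin, 8.42, 8.24 and 7.83 in germ-free saline and 8.68, 8.82 and 9.22 in germ-free insulin mice. For Nfil3 the germ-free arrays lay above the colonized arrays within each treatment, while arrays of different treatments overlapped (effect 1.38 ± 0.16 SE, adjusted p = 0.000387). Per2 (0.51 ± 0.16) and Per3 (0.50 ± 0.12), of the negative limb of the clock, and Ciart (0.53 ± 0.15), a repressor of the clock activators, were higher, and Arntl (-0.51 ± 0.15), which encodes the activator BMAL1, and Hlf (-0.43 ± 0.11), of clock output, were lower. Arntl read 8.21, 7.53 and 7.21 in colonized saline, 7.78, 7.87 and 7.99 in colonized insulin, 7.17, 7.25 and 7.57 in germ-free saline and 7.22, 7.39 and 6.94 in germ-free insulin mice, so that the germ-free arrays lay below the colonized arrays after insulin and overlapped them after saline. BMAL1 and CLOCK bind the E-box CACGTG, its own reverse complement. It was in a promoter window of 7.92% of all genes that had one and of 5 of the 16 genes of this list with one. Of the 5 called clock genes with a window, Ciart held it, in 3 copies, and the other 4 did not. Of the Ciart window 100 bases (GRCm38.p6, from RefSeq) are shown with the copies in capitals.
Ciart, chr3:95882256-95882355, minus strand: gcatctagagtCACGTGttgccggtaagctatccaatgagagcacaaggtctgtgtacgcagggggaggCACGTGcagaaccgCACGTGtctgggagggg
Ciart read 6.14, 5.72 and 6.26 in colonized saline, 5.72, 5.69 and 6.41 in colonized insulin, 6.63, 6.22 and 6.22 in germ-free saline and 6.73, 6.47 and 6.88 in germ-free insulin mice, so that the germ-free arrays lay above the colonized arrays after insulin and overlapped them after saline (0.32 after saline and 0.75 after insulin). Ciart and Hlf read under the background level of 7.71 on all 12 arrays, so their effects are not well measured. The hour of sampling of each group is not named in the sources used here, and its part was not tested. Without 1 array the call was lost for Per2 (10 arrays, 0.49 to 0.55), Ciart (5 arrays, 0.47 to 0.52) and Arntl (7 arrays, -0.53 to -0.45). By scaling, a second quantile normalization ended the call of Arntl (-0.41), and median centring ended that of Arntl (-0.43).

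Glucocorticoid targets were 3 higher and 0 lower of 18 measured (16.7% and 0%, against 6.11% and 11.5% of all genes). Sgk1, a kinase induced by corticosteroids, read 9.73, 9.51 and 9.81 in colonized saline, 9.90, 9.81 and 9.92 in colonized insulin, 10.51, 10.39 and 10.41 in germ-free saline and 10.42, 10.34 and 10.43 in germ-free insulin mice. For Sgk1 all 6 germ-free arrays lay above all 6 colonized arrays (effect 0.63 ± 0.07 SE, adjusted p = 0.000363), and the call held with the adipocyte and the chromaffin covariate. Dusp1 and Sult1a1 (0.59 ± 0.17) were the others, and Pdk4 (0.83 ± 0.37) was not called. Genes of the insulin and FOXO pathway were 5 higher and 3 lower of 23 measured. The insulin receptor gene Insr read 11.17, 11.04 and 11.33 in colonized saline, 11.12, 11.23 and 11.32 in colonized insulin, 11.50, 11.44 and 11.55 in germ-free saline and 11.52, 11.57 and 11.70 in germ-free insulin mice. For Insr all 6 germ-free arrays lay above all 6 colonized arrays (effect 0.35 ± 0.07 SE, adjusted p = 0.00846). Irs2 (0.46 ± 0.09), Igf1r (0.37 ± 0.10), Foxo1 (0.30 ± 0.08) and the glucose-6-phosphatase gene G6pc (0.67 ± 0.21) were higher, and Bcl6 (-0.74 ± 0.08), Foxo3 (-0.34 ± 0.07) and the kinase gene Akt2 (-0.31 ± 0.08) lower, while Pck1 (2.04 ± 0.69) was not called. Heat shock proteins were 1 higher and 0 lower of 12 measured (8.33% and 0%), the mitochondrial chaperonin gene Hspe1 (0.37 ± 0.08), and Cryab (-0.48 ± 0.19) was not called. ER stress and ATF4 response genes were 4 higher and 2 lower of 19 measured (21.1% and 10.5%). Psat1, of serine synthesis, read 10.06, 9.17 and 9.98 in colonized saline, 9.51, 9.67 and 10.54 in colonized insulin, 10.95, 10.96 and 10.81 in germ-free saline and 10.78, 10.91 and 11.05 in germ-free insulin mice. For Psat1 all 6 germ-free arrays lay above all 6 colonized arrays (effect 1.09 ± 0.19 SE, adjusted p = 0.00259). Dnajb9 (0.62 ± 0.11), Atf4 (0.31 ± 0.07) and Atf3 (0.71 ± 0.11) were the other higher genes, and Sdf2l1 (-0.56 ± 0.12) and Shmt2 (-0.51 ± 0.09) were lower. With the adipocyte covariate 4 genes of the insulin and FOXO pathway were called lower and 0 higher, with 3 higher and 9 lower at an unadjusted p under 0.05. Dropping 1 array at a time ended the calls of Sult1a1 (9 arrays, 0.50 to 0.62), Igf1r (3 arrays, 0.33 to 0.35), Foxo1 (6 arrays, 0.25 to 0.30), G6pc (9 arrays, 0.54 to 0.76) and Akt2 (6 arrays, -0.31 to -0.26). Under another scaling, a second quantile normalization ended the call of Akt2 (-0.24), and median centring ended that of Akt2 (-0.23).

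Schwann and sustentacular markers, of the glia that ensheathe nerve endings and chromaffin cells, were 0 higher and 6 lower of 12 measured, with medians of -0.65 after saline and -0.19 after insulin. The shared median was -0.41, and -0.35 without colonized saline 2. The lower genes were Fabp7 (-1.42 ± 0.44), Ncam1 (-1.07 ± 0.12), Cdh19 (-0.83 ± 0.23), Sox10 (-0.68 ± 0.20), Egfl8 (-0.41 ± 0.10) and Erbb3 (-0.39 ± 0.10). Ncam1, an adhesion molecule that chromaffin cells also carry, read 10.71, 10.78 and 10.37 in colonized saline, 10.98, 10.75 and 10.72 in colonized insulin, 9.87, 9.93 and 9.97 in germ-free saline and 9.74, 9.27 and 9.10 in germ-free insulin mice. For Ncam1 all 6 germ-free arrays lay below all 6 colonized arrays (effect -1.07 ± 0.12 SE, adjusted p = 0.000243). Fabp7 read 9.66, 11.71 and 8.15 in colonized saline, 9.22, 8.56 and 8.57 in colonized insulin, 7.03, 7.27 and 7.25 in germ-free saline and 8.75, 8.24 and 8.78 in germ-free insulin mice, so that the germ-free arrays lay below the colonized arrays after saline and overlapped them after insulin. Fibroblast and matrix markers were 0 higher and 4 lower of 15 measured, with Thy1 (-0.91 ± 0.13), Col6a1 (-0.79 ± 0.13), Col5a1 (-0.63 ± 0.10) and Pdgfrb (-0.45 ± 0.09) lower and Col3a1 (-0.53 ± 0.40) not called. The median of the fibroblast list was -0.20 (-0.60 after saline and 0.01 after insulin). It was -0.84 with the adipocyte covariate, where 9 were called lower, and -0.997 with the chromaffin covariate, where 2 were. It turned to 0.09 without colonized saline 2, and to 0.40 with the adrenal cortex covariate, where 3 were called higher and 5 lower. Endothelial markers were 0 higher and 3 lower of 13 measured, namely Plvap (-0.75 ± 0.14), Eng (-0.29 ± 0.07) and Tie1 (-0.28 ± 0.08). The calls of Fabp7 (10 arrays, -1.48 to -1.31), Cdh19 (6 arrays, -0.83 to -0.73), Sox10 (7 arrays, -0.73 to -0.60) and Tie1 (9 arrays, -0.29 to -0.25) were lost when 1 array was left out. Scaled otherwise, a second quantile normalization ended the calls of Fabp7 (-1.35) and Tie1 (-0.20), and median centring ended those of Eng (-0.21), Fabp7 (-1.35), Sox10 (-0.61) and Tie1 (-0.21).

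**Figure D5:**
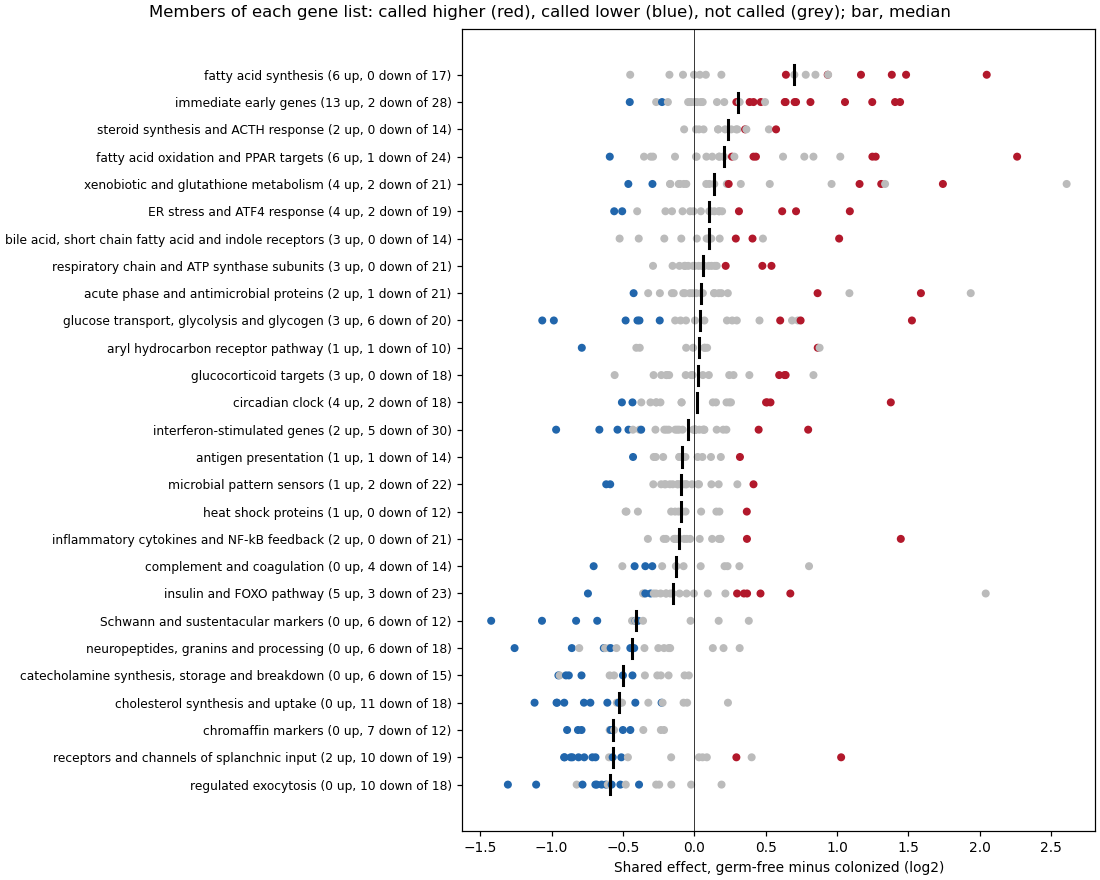
Shared germ-free effect (horizontal axis, log2, germ-free minus colonized) of each measured member of 27 gene lists (vertical axis, sorted by median; points, genes, red where called higher, blue where called lower, grey where not called; bars, list medians). Lists of secretion, catecholamines and cholesterol synthesis lie to the left, with medians from -0.59 to -0.43, and fatty acid synthesis and immediate early genes lie to the right.

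Intestinal epithelium markers were 14 higher and 0 lower of 16 measured, with medians of 3.16 after saline and 0.10 after insulin. Reg1, a secreted protein of the gut and pancreas, read 3.86, 3.55 and 3.65 in colonized saline, 3.54, 3.93 and 3.60 in colonized insulin, 10.37, 8.33 and 8.83 in germ-free saline and 3.62, 3.83 and 3.79 in germ-free insulin mice. For Reg1 the germ-free arrays lay above the colonized arrays after saline and overlapped them after insulin, and the effects were 5.49 after saline and 0.06 after insulin. The 9 arrays outside germ-free saline lay under 7.71, so the effect after saline is a difference from a level not above background. Guca2b (2.41 ± 0.28), Muc13 (2.16 ± 0.26), Alpi (1.98 ± 0.28), Apoa4 (1.72 ± 0.27), Fabp2 (1.68 ± 0.31), Slc5a1 (1.63 ± 0.23), Sis (1.62 ± 0.27), Cdh17 (1.50 ± 0.34), Lgals4 (0.65 ± 0.18), Vil1 (0.52 ± 0.11) and Lct (0.49 ± 0.12) were higher as well, beside Akp3 and Pigr. Pituitary markers were 6 higher and 1 lower of 9 measured. Gh read 5.86, 5.17 and 5.63 in colonized saline, 5.70, 5.76 and 5.69 in colonized insulin, 6.11, 7.81 and 6.43 in germ-free saline and 10.31, 11.43 and 12.06 in germ-free insulin mice. For Gh all 6 germ-free arrays lay above all 6 colonized arrays, with effects of 1.23 after saline and 5.55 after insulin. Prl (1.84 ± 0.28), Cga (1.10 ± 0.21), Pomc (0.63 ± 0.15), Lhb (0.56 ± 0.11) and Tshb (0.35 ± 0.11), which encode pituitary hormones or their subunits, were also higher, and Chgb, which chromaffin cells express too, was lower. Hepatocyte markers were 1 higher and 0 lower of 15 measured (6.67% and 0%, against 6.11% and 11.5% of all genes), Ttr (2.56 ± 0.71), with 2.91 ± 1.10 for Alb, which was not called, and without colonized saline 2 there were 12 higher. Lymph node markers were 2 higher and 1 lower of 8 measured (Cxcr5 (0.39 ± 0.09) and Cr2 higher, Ccl19 (-0.43 ± 0.12) lower), pancreatic acinar markers 1 higher and 0 lower of 12 measured (Cela2a (0.34 ± 0.09)), and kidney tubule, skeletal muscle and red blood cell markers had 0 called by limma (1, 4 and 0 at an unadjusted p under 0.05). Calls that 1 left-out array ended were those of Lgals4 (6 arrays, 0.59 to 0.65), Tshb (10 arrays, 0.27 to 0.38), Ttr (6 arrays, 2.34 to 2.60), Ccl19 (6 arrays, -0.43 to -0.37) and Cela2a (4 arrays, 0.28 to 0.32). With the arrays rescaled, a second quantile normalization ended the call of Tshb (0.31), and median centring ended that of Ccl19 (-0.36).

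Genes known to differ among C57BL/6 substrains were read too, since the labels name C57Bl6 alone. Of the 9 measured members 1 was called (11.1% higher and 0% lower, against 6.11% and 11.5% of all genes). It was Entpd4, which encodes a nucleotidase. It read 11.96, 11.38 and 12.02 in colonized saline, 11.82, 11.83 and 11.76 in colonized insulin, 12.33, 12.38 and 12.47 in germ-free saline and 12.44, 12.61 and 12.58 in germ-free insulin mice. For Entpd4 all 6 germ-free arrays lay above all 6 colonized arrays, and the effect was 0.68 ± 0.10 (SE, adjusted p = 0.00154). The effects of Mmrn1, Wdfy1, Ide, Fgfbp3, Gabra2, Crb1, Cyfip2 and Nlrp12 lay between -0.18 and 0.14 and none was called. A difference of substrain was not tested by these genes, and some listed genes, among them Nnt, were not analysed here.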

How the data were processed

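Affymetrix arrays of 12 adrenal medullae were used, 3 animals in each of 4 groups, with 1 deposited table of log2 values that was used as it stands. The submitters' processing notes name RMA, which corrects background, quantile-normalizes and summarizes probe sets, and limma, without versions. No source used here says whether all arrays were normalized together. Group means and contrasts were fitted here with limma 3.58.1 in R 4.3.3 (lmFit, eBayes, 8 residual and 4.08 prior degrees of freedom), and Benjamini-Hochberg adjustment ran over 19572 probe sets, with calls at an adjusted p under 0.05. All adjusted p-values are from limma and errors beside effects are its standard errors. Gene lists are described by counts and medians alone. The members and lists were chosen with earlier results of these data known.

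Named genes were the 10 highest and 10 lowest effects among called genes whose arrays did not overlap within either treatment, the same with calls kept under the adipocyte and chromaffin covariates, up to 4 members with the largest effect and the called members of lists described in detail, all measured substrain genes, and Th, Dbh, Pnmt, Ddc, Chga and Npy. Predicted genes (Gm, Rik) entered the counts without being named. Alternatives were other sets of rows, leaving out probe sets with a mean under 7.71, 2 scalings, trend and robust options, array weights, an additive model, 4 covariates, 2 thresholds and leaving out each array. On simulated data with 19505 genes and this design the shared effect was called for 50 of 100 genes changed by 0.5 and for 95 of 100 genes changed by 1 on the log2 scale, and 2 calls were false. The simulated noise was independent for each gene and array, with no array-level offset between colonization states and no mixture of tissues. It therefore gives no rate of false calls for the real arrays. Replicate numbers are not shared between groups, so no samples were paired. Sequences are RefSeq promoter windows of GRCm38.p6. No gene coordinates other than theirs are given, since no source used here names the build of the array annotation.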

Additional observations from a re-analysis of the deposited data

Results flagged for a closer look

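The germ-free effect differed between treatments for 7 genes by the test of the difference itself (limma, adjusted p under 0.05). Reg1 had effects of 5.49 after saline and 0.06 after insulin, a difference of -5.43 on the log2 scale. Guca2b, a gut hormone gene, had effects of 4.67 after saline and 0.15 after insulin (difference -4.52), Muc13, an epithelial mucin gene, of 4.07 after saline and 0.24 after insulin (difference -3.83), and Slc5a1, the intestinal glucose transporter gene, of 3.23 after saline and 0.03 after insulin (difference -3.20). These 4 genes belong to the intestinal marker list, whose mean level was 7.37 to 9.27 on the 3 germ-free saline arrays and 5.15 to 5.44 on the other 9. Gh had effects of 1.23 after saline and 5.55 after insulin (difference 4.32), and belongs to the pituitary marker list, whose mean level was 7.33 to 8.04 on the 3 germ-free insulin arrays and 6.05 to 6.52 on the other 9. The part of these markers in the differences was not tested. Reg1, Guca2b, Muc13, Slc5a1 and Gh read under 7.71, the background level used here, on all 6 colonized arrays, so their effects are differences from a level not above background. Adarb1 had effects of 2.16 after saline and 0.64 after insulin (difference -1.52) and Slc25a20 of -0.10 after saline and 0.96 after insulin (difference 1.06). In data outside the gene comparison, the median of the negative control rows was 0.67 higher on the germ-free than on the colonized arrays, with no overlap among the 12 arrays (4.70 to 4.83 against 5.30 to 5.54). No source used here says what these rows target.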

How the results depend on the processing

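The 1191 higher, 2249 lower and 7 treatment-dependent calls stayed within 1.5 times of these counts under the settings not named here. The cause of each change below was not tested, apart from the smaller number of genes with dim probe sets left out. The higher count was 783 with dim probe sets left out (7056 genes). It was 1836 with median centring, where 1387 genes were lower and 2 treatment-dependent, and array weights gave 1963, 3554 and 148. The adipocyte covariate gave 523, 908 and 0 (1349 treatment-dependent at an unadjusted p under 0.05), and the chromaffin covariate 124, 184 and 0 (1048). Their median standard errors were 1.41 and 1.76 times as large as without a covariate. Members of the list behind a covariate, among them Dbh and Chga for the chromaffin one, are fitted partly against themselves. The negative control covariate gave 0 higher and 0 lower genes (887 at an unadjusted p under 0.05), with standard errors 5.58 times as large. A threshold of 0.01 gave 444, 974 and 1, and a threshold of 0.10 gave 49 treatment-dependent genes. All rows and the adrenal cortex covariate each gave 1 such gene. Leaving out single arrays gave 1 to 83 treatment-dependent genes, 814 to 1671 higher and 1581 to 3214 lower ones, and 2053 genes were called without any single array. Of the 221 called genes with printed effects, none changed sign when an array was left out or under another scaling, and 75 had no value with dim probe sets left out. With the adipocyte covariate the sign changed for Adipoq -0.55, Ces1d -0.34, Cidec -0.52, Cyp11b2 -0.17, Cyp1a2 -0.51, Cyp2e1 -0.37, Dgat2 -0.03, Fabp3 -0.19, Fabp4 -0.10, Hp -0.87, Nr0b1 -0.21, Pck1 -0.38, Pdk4 -0.37, Pparg -0.17, Retn -0.59, Slc2a4 -0.01, Th 0.03 and Thrsp -0.01, and with the adrenal cortex covariate for Col3a1 0.40, Slc6a2 0.26 and Sv2c 0.39. With the chromaffin covariate it changed for Acaca -0.17, Adipoq -1.41, Agtr2 0.09, Ces1d -0.74, Chga 0.08, Chrna7 0.08, Cidec -1.22, Cyp11b2 -0.17, Cyp1a2 -0.64, Cyp2e1 -1.03, Dbh 0.07, Dgat2 -0.43, Fabp3 -0.26, Fabp4 -0.35, Hp -1.37, Lipe -0.06, Npy 0.09, Nr0b1 -0.44, Orm1 -0.08, Pck1 -0.53, Pdk4 -0.31, Pfkfb3 -0.04, Pnmt 0.33, Pparg -0.47, Ppp1r3b -0.01, Rab3c 0.04, Retn -1.30, Scg5 0.16, Slc2a4 -0.08, Sult1a1 -0.07, Th 0.24, Thrsp -0.27 and Ttr -0.31. With the negative control covariate 96 of 246 printed effects changed sign: Abcc3 1.06, Acaca -0.54, Ache 0.16, Adcyap1r1 0.09, Akt2 0.34, Arntl 0.95, Atf3 -0.03, C7 0.62, Cacna1a 0.61, Cacna1b 1.59, Cadps 1.46, Ccl19 0.21, Cdh19 0.03, Cga -1.67, Chrna3 1.59, Chrnb4 2.20, Ciart -0.09, Col3a1 0.87, Cplx2 0.76, Cryab 1.46, Csrnp1 -0.67, Cyb561 0.14, Cycs -0.09, Cyp11b2 -0.05, Cyp1b1 0.47, Dbh 0.75, Ddc 0.97, Dio2 -0.46, Dnajb9 -0.66, Drd2 0.33, Egfl8 0.41, Eif2s3y -0.52, Elovl6 -0.58, Eng 0.18, Ephx1 -0.25, Erbb3 0.32, Fabp7 1.76, Fdx1 -0.18, Gata2 0.65, Gem -0.11, Gh -0.84, Hk1 0.24, Ier3 -0.48, Insr -0.13, Irs2 -0.05, Junb -0.86, Kdm5d -0.31, Klf2 0.10, Lhb -0.44, Ly96 0.46, Mmd2 0.48, Ncam1 0.53, Nr0b1 -0.90, Nr1h4 0.53, Nr4a1 -0.88, Nr4a2 -1.31, Nr5a1 -0.04, Oasl2 0.16, Pcbd1 0.84, Penk 0.55, Per2 -1.07, Per3 -0.83, Phox2a 0.61, Pirt 0.16, Plin5 0.23, Pnmt 0.60, Pomc -0.62, Ppp1r3b -0.07, Prl -2.86, Qdpr 0.22, Rab3c 0.29, Retn -0.16, Sc5d 0.10, Scg3 0.58, Scg5 0.41, Sik1 -1.16, Slc18a2 0.02, Slc25a20 -0.18, Slc6a2 2.92, Snap25 1.49, Sox10 1.18, Sult4a1 1.04, Susd3 1.47, Sv2c 1.38, Syt1 1.32, Syt11 0.33, Syt4 0.47, Th 0.12, Thrsp -0.06, Tiparp -1.61, Tlr5 -0.15, Tnfaip6 -1.20, Trp53inp1 -0.45, Ucp3 -0.35, Uty -1.02 and Vip 0.73. No paired analysis was possible because the groups share no replicate number in the titles (1 to 3, 4 to 6, 7 to 9 and 10 to 12). Signal limits the comparison for dim genes: 7056 of the 19505 genes kept a probe set whose mean reached 7.71, the 95th percentile of the means of the negative control rows.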

Other observations

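Some groups of genes were looked at after their values were seen and belong to no list. Of 243 long non-coding RNA genes, 11.9% were called higher in germ-free mice and 2.88% lower, and of 139 transcribed pseudogenes 12.2% and 3.60%, against 5.99% and 11.7% of 19107 protein-coding genes. Their median levels were 5.30, 5.20 and 6.89. By mean level, 2.79% of 4652 genes under 5 were called higher and 1.89% lower, 5.86% and 19.2% of 3243 genes between 7 and 8, and 12.1% and 13.1% of 1293 genes above 10. Among Y-linked genes, all animals being male, Eif2s3y was called higher by 0.45 ± 0.09, with 8.96, 8.94 and 9.05 in colonized saline, 8.87, 8.87 and 9.08 in colonized insulin, 9.34, 9.42 and 9.31 in germ-free saline and 9.19, 9.55 and 9.63 in germ-free insulin mice. Uty was called higher by 0.69 ± 0.16, and Kdm5d had an effect of 0.08 ± 0.09 that was not called.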
